A study of Mus musculus with 14 samples.

Results

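The Tex (testis expressed) and Spata (spermatogenesis associated) genes are 2 naming families of mouse genes that were found by their expression in testis. The 49 genes described here are the autosomal genes of the deposited expression tables whose symbol is Tex or Spata followed by a digit, apart from Tex12, Tex15 and Tex101. They number 21 Tex and 28 Spata genes of 20626 genes in all, and 58 symbols had the pattern, 6 of them on the X chromosome. The names mark a way of discovery, not a shared structure, except for small groups of copies such as Spata31d1a, Spata31d1b, Spata31d1c and Spata31d1d. Measurements came from germ cells of adult C57BL/6J mice, that had been stained with a Hoechst dye and propidium iodide and sorted by fluorescence. The sorted cells were PD, spermatocytes in the pachytene and diplotene stages of meiosis, and RS, the round spermatids that follow meiosis. Each was taken from WT mice and from mice whose genotype is given as Setd2KO, and the labels name neither the deleted allele nor any driver of the deletion, nor how many mice each sample came from. Polyadenylated RNA was sequenced in 2 libraries for each of the 4 groups, and H3K36me3 was mapped by ChIP-seq with 1 deposited peak list for each group.

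Setd2 is the methyltransferase that puts 3 methyl groups on lysine 36 of histone H3 behind elongating RNA polymerase, so that the mark, H3K36me3, lies over the bodies of transcribed genes. After meiosis a spermatid builds an acrosome, a flagellum with a mitochondrial sheath and a compact nucleus, and many genes for these parts are first transcribed, or much more strongly transcribed, in round spermatids. The Tex and Spata names cover genes of this late program, genes of meiotic prophase and genes that nearly every cell uses.

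RNA levels are FPKM, fragments per kilobase of transcript and per megaread, so levels may be compared between genes. Sequencing depth, worked back from the values, was 50.8 to 84.9 megareads a library, at which 1 read per kilobase is worth 0.0118 to 0.0197 FPKM. Changes are log2 differences of FPKM + 1, fitted with limma over 11452 genes and adjusted by the Benjamini-Hochberg method, and "rose" and "fell" stand for an adjusted p under 0.05. Spata13 and Spata5l1 were under the filter on low values, so 47 of the 49 genes were tested. Nothing in the labels ties the 2 libraries of a group to different animals, and the p-values therefore cover only the spread from library to library, possibly of technical origin. Setd2 RNA was not lower in Setd2KO: against 21.2 and 19.09 FPKM in WT, PD Setd2KO had 21.03 and 21.4 FPKM, and against 5.24 and 5.58 FPKM in WT, RS Setd2KO had 12.1 and 8.67 FPKM. A value over the whole gene does not check a deletion of a part of it, and directions rest on the labels. In a sorted bulk sample, fewer cells of a type and less RNA per cell cannot be told apart. Markers of spermatocytes were high in every library, also in RS, at 1955 to 2772 FPKM summed over 10 of 10 genes. That sum gives no share of spermatocytes in RS. Mlh3, 1 of the 10, had 17.3 and 15.3 FPKM in PD WT and 1.39 and 1.54 FPKM in RS WT. It does not stand for the list, which summed to 2080 and 2772 FPKM in PD WT and 2148 and 1955 FPKM in RS WT. In 24 other genes, at least 20 FPKM in PD WT and 20-fold lower in RS WT, RS levels were read as percentages of the PD mean. Medians were 3.66% and 4.08% in RS WT, held low by that choice, and 5.35% and 4.68% in RS Setd2KO. The 10 round spermatid markers summed to 66.5 and 80.2 FPKM in PD WT, 153.6 and 101.3 FPKM in PD Setd2KO, 1303 and 1221 FPKM in RS WT and 814 and 1079 FPKM in RS Setd2KO.

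In WT cells most Tex and Spata genes were spermatid genes. From PD to RS 32 of the 47 rose, where 36% of all tested genes did, and 9 fell, where 46.7% of all tested genes did. The median log2 change was 2.89 for the 47 genes and -0.21 for all genes tested. The heat map of RNA levels shows a large upper block that is dark in PD and bright in RS, a band of genes present in both and a few genes that are bright in PD.

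**Figure D1:**
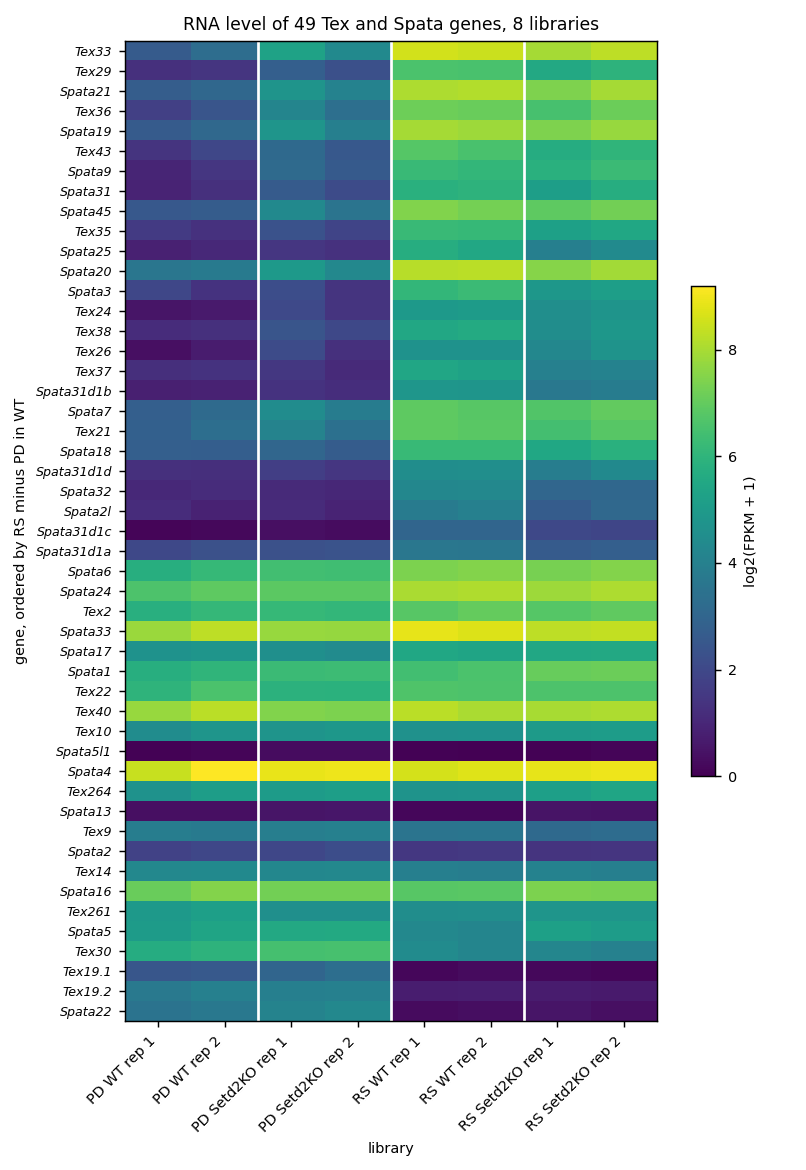
Each row is 1 of 49 Tex or Spata genes, ordered by the difference between RS and PD in WT, each column is 1 of 8 libraries, and colour gives log2(FPKM + 1). Rows from Tex33 to Spata2l brighten from PD to RS, while Spata22, Tex19.2, Tex19.1 and Tex30 at the bottom are brighter in PD.

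Among the genes of meiosis and germ cell integrity, all 4 in the tables (Tex14, Tex19.1, Tex19.2 and Spata22) were lower in RS WT than in PD WT. Spata22 (chr11:73143243-73159546, plus strand), whose product binds single-stranded DNA together with Meiob during meiotic recombination, had 10.2 and 11.8 FPKM in PD WT and 0.213 and 0.262 FPKM in RS WT. Its level fell by 3.28 ± 0.12 on the log2 scale (SE, adjusted p = 2.1e-09). Tex19.2 (chr11:120977529-120979991, minus strand) had 12.2 and 15.1 FPKM in PD WT and 0.65 and 0.721 FPKM in RS WT. Its neighbour Tex19.1 (chr11:121007457-121009627, plus strand), which restrains transposons in germ cells, had 4.50 and 4.87 FPKM in PD WT and 0.129 and 0.204 FPKM in RS WT. Tex19.1 and Tex19.2 are near copies, and reads could be split between them, so their separate levels are uncertain. Tex14, needed for the intercellular bridges that join dividing germ cells, was at 18.4 and 19.7 FPKM in PD WT and 14.9 and 14.01 FPKM in RS WT. Its small fall (-0.38, adjusted p = 0.0134) was lost without RS WT replicate 2, with the replicate block and with only the WT libraries fitted (adjusted p up to 0.118).

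The genes of the sperm tail and of mitochondria moved the other way: 11 of 13 rose from PD to RS and none fell, with a median log2 change of 4.06. Tex33 (chr15:78208830-78219199, minus strand), which encodes a protein inside ciliary microtubules, had 5.23 and 8.76 FPKM in PD WT and 382 and 349 FPKM in RS WT, the largest step of the 47 genes. Spata19 (chr9:27204392-27209296, plus strand), a mitochondrial protein of sperm needed for motility, had 5.28 and 7.53 FPKM in PD WT and 245 and 228 FPKM in RS WT. Tex43 (chr18:56748002-56754433, plus strand), a protein inside the microtubules of the sperm axoneme, had 1.59 and 2.88 FPKM in PD WT and 109 and 93.2 FPKM in RS WT. In these 3 genes each RS WT value was more than 30 times each PD WT value, and replicates of a group were close by comparison. Similar steps were those of Tex29 (1.44 and 1.70 FPKM in PD WT and 96.4 and 92.6 FPKM in RS WT), Spata21 (5.59 and 7.34 FPKM in PD WT and 265 and 278 FPKM in RS WT) and Tex36 (2.31 and 4.33 FPKM in PD WT and 143 and 137 FPKM in RS WT). Spata4 and Tex40 were the 2 tail genes that did not pass. Spata4 (chr8:55686134-55695451, plus strand) had the highest mean of all 49 genes over the 8 libraries, 461 FPKM, with 345 and 585 FPKM in PD WT and 389.7 and 427 FPKM in RS WT. Its PD WT replicates lay on either side of the RS WT values, and without PD WT replicate 2 it passed as higher in RS (log2 change 0.24, adjusted p = 0.0303). Tex40 (chr19:6996916-6999870, minus strand), the zeta subunit of the CatSper calcium channel, had 220.4 and 306 FPKM in PD WT and 305 and 261 FPKM in RS WT. Spata33 (chr8:125736758-125745945, plus strand), which ties the phosphatase calcineurin to sperm mitochondria, was abundant in both cell types and rose, with 224 and 306 FPKM in PD WT and 456 and 415 FPKM in RS WT. Spata24 (chr18:35819670-35821840, minus strand) was likewise present in both and rose, with 98.4 and 118 FPKM in PD WT and 258 and 272 FPKM in RS WT.

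In the group of acrosome, sperm head and head-tail coupling, 5 of 7 genes rose from PD to RS and 1 fell. Spata6 (chr4:111392615-111501745, plus strand), needed for the coupling apparatus that joins head and tail, had 52.9 and 71.02 FPKM in PD WT and 165 and 177 FPKM in RS WT. Spata9, at 0.947 and 1.74 FPKM in PD WT and 74.2 and 66.9 FPKM in RS WT, and Spata20, at 11.2 and 12.4 FPKM in PD WT and 295 and 304 FPKM in RS WT, rose from low levels. Spata16 (chr3:26536553-26826403, plus strand), a Golgi protein without which the acrosome does not form, was the gene that fell, with 136 and 179 FPKM in PD WT and 112 and 115 FPKM in RS WT. Its call was lost without either RS WT library or either PD Setd2KO library, with only the WT libraries fitted and with the replicate block (adjusted p up to 0.181). The broadly expressed genes were divided, with 3 of 10 higher and 4 lower in RS. Tex30 (51.3 and 60.7 FPKM in PD WT and 20.8 and 17.3 FPKM in RS WT), Spata5 (31.9 and 40.2 FPKM in PD WT and 18.6 and 17.02 FPKM in RS WT), Tex261 (30.03 and 35.96 FPKM in PD WT and 21.8 and 22.1 FPKM in RS WT) and Spata2 (2.50 and 2.90 FPKM in PD WT and 1.80 and 1.90 FPKM in RS WT) fell, and Spata2 lost its call without PD WT replicate 2 or RS WT replicate 1 (adjusted p up to 0.0547). Tex2 (54.9 and 68.7 FPKM in PD WT and 111 and 128 FPKM in RS WT), a lipid transfer protein of the endoplasmic reticulum, Spata7 (5.81 and 8.04 FPKM in PD WT and 119 and 111 FPKM in RS WT), a protein of the photoreceptor connecting cilium, and Spata2l (1.24 and 0.853 FPKM in PD WT and 13.2 and 14.97 FPKM in RS WT) rose.

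In round spermatids more of these genes fell than rose in Setd2KO. In RS Setd2KO 14 of the 47 fell (29.8%), where 21.8% of all tested genes did, and 4 rose (8.51%), where 20.9% of all tested genes did. The median log2 change was -0.27 for the 47 genes and 0.02 for all genes tested. Both Setd2KO libraries lay below both WT libraries for 26 of the 47, against 37.7% of all tested genes. Of the 14 that fell, 13 were among the 32 that rise from PD to RS in WT. That share (40.6%) is next to the share of all such genes that fell (40.4%).

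The largest fall was that of Spata25 (chr2:164652882-164654034, minus strand), with 52.5 and 44.2 FPKM in the RS WT libraries and 14.8 and 19.9 FPKM in the RS Setd2KO libraries. The 2 genotypes were far apart, the Setd2KO mean was 35.9% of the WT mean, and the log2 change was -1.44 ± 0.16 (SE, adjusted p = 5.38e-05). Tex37 (chr6:70863083-70868916, minus strand), a protein inside the microtubules of the sperm axoneme, had 42.2 and 38.05 FPKM in the RS WT libraries and 15.1 and 15.9 FPKM in the RS Setd2KO libraries, a log2 change of -1.32 ± 0.14 (SE, adjusted p = 4.13e-05). Spata32 (chr11:103069441-103079746, minus strand) had 17.9 and 18.7 FPKM in the RS WT libraries and 7.27 and 7.37 FPKM in the RS Setd2KO libraries, a log2 change of -1.22 ± 0.11 (SE, adjusted p = 1.32e-05). Spata32 overlaps 1700023F06Rik on the same strand, and reads of the overlap could belong to either gene. Spata3 (chr1:87918517-87921244, plus strand) had 67.6 and 76.9 FPKM in the RS WT libraries and 27.99 and 34.2 FPKM in the RS Setd2KO libraries, a log2 change of -1.19 ± 0.25 (SE, adjusted p = 0.00315). In each of these 4 genes both Setd2KO libraries lay below both WT libraries. They were picked for their falls, so this is no further support.

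The 5 Spata31 genes, copies of a gene that lie on chromosome 13, were all lower in the means of RS Setd2KO, and 3 of them fell. Spata31d1b (chr13:59813645-59820650, plus strand) had 27.8 and 26.4 FPKM in the RS WT libraries and 11.9 and 13.5 FPKM in the RS Setd2KO libraries, a log2 change of -1.04 ± 0.12 (SE, adjusted p = 5.80e-05). Spata31d1c (chr13:65134366-65139312, plus strand) had 7.06 and 6.93 FPKM in the RS WT libraries and 2.99 and 2.82 FPKM in the RS Setd2KO libraries, a log2 change of -1.03 ± 0.09 (SE, adjusted p = 1.25e-05). Spata31d1a also fell, with 11.5 and 11.3 FPKM in the RS WT libraries and 5.27 and 5.91 FPKM in the RS Setd2KO libraries. Spata31d1d, at 21.8 and 22.5 FPKM in the RS WT libraries and 14.04 and 19.7 FPKM in the RS Setd2KO libraries, did not pass (adjusted p = 0.0646), nor did Spata31, at 56.1 and 60.2 FPKM in the RS WT libraries and 34.9 and 52.1 FPKM in the RS Setd2KO libraries (adjusted p = 0.125). These 5 genes are near copies, so how reads were shared among them is uncertain. The other 8 genes that fell were Spata2l (-1.03), Tex38 (-0.88), Tex35 (-0.84), Tex29 (-0.83), Tex43 (-0.80), Spata18 (-0.54), Tex9 (-0.37) and the already named Spata31d1a (-0.91), as log2 changes. Spata18, also called Mieap, acts in the quality control of mitochondria and had 71.9 and 71.8 FPKM in the RS WT libraries and 43.5 and 55.6 FPKM in the RS Setd2KO libraries. Its call was lost without RS WT replicate 1, RS WT replicate 2 or RS Setd2KO replicate 1 (adjusted p up to 0.182). Tex29 lost its call without RS Setd2KO replicate 1 (adjusted p = 0.0548), Tex43 without RS WT replicate 1, RS Setd2KO replicate 1 or the filter on low values (adjusted p up to 0.126), and Tex9 without any 1 of the RS or PD Setd2KO libraries, with either other scaling and with the replicate block (adjusted p up to 0.19).

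Spata5 (chr3:37318872-37478018, plus strand), an AAA ATPase of ribosome maturation, rose the most in RS Setd2KO. It had 18.6 and 17.02 FPKM in the RS WT libraries and 36.2 and 32.8 FPKM in the RS Setd2KO libraries, a log2 change of 0.92 ± 0.15 (SE, adjusted p = 0.000607). The RS Setd2KO values were of the size of the PD WT values, 31.9 and 40.2 FPKM. Spata1 (chr3:146120167-146162717, minus strand) rose from 84.8 and 96.4 FPKM in RS WT to 131 and 138 FPKM in RS Setd2KO, a log2 change of 0.57 ± 0.15 (SE, adjusted p = 0.0117). Spata1 overlaps Ctbs, which lies on the other strand. Tex264 (chr9:106561077-106588283, minus strand), a receptor for autophagy of the endoplasmic reticulum, had 25.4 and 26.1 FPKM in the RS WT libraries and 35.6 and 41.1 FPKM in the RS Setd2KO libraries, a log2 change of 0.55 ± 0.16 (SE, adjusted p = 0.0193). Spata16 had 112 and 115 FPKM in the RS WT libraries and 167 and 161 FPKM in the RS Setd2KO libraries, a log2 change of 0.53 ± 0.16 (SE, adjusted p = 0.0232). The groups of libraries did not overlap in any of the 4 genes, which were picked by adjusted p, so this is no further support. Only Spata5 kept its call under every alternative tried. Spata1 lost it without RS WT replicate 1 or either RS Setd2KO library (adjusted p up to 0.103), Tex264 without either RS WT library or RS Setd2KO replicate 2 (adjusted p up to 0.12) and Spata16 without any 1 of the RS or PD Setd2KO libraries (adjusted p up to 0.144). The count of genes that rose in RS went from 4 to 1 without RS WT replicate 1 or RS Setd2KO replicate 2, to 2 without RS WT replicate 2 or RS Setd2KO replicate 1, and to 7 without either PD WT library.

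**Figure D2:**
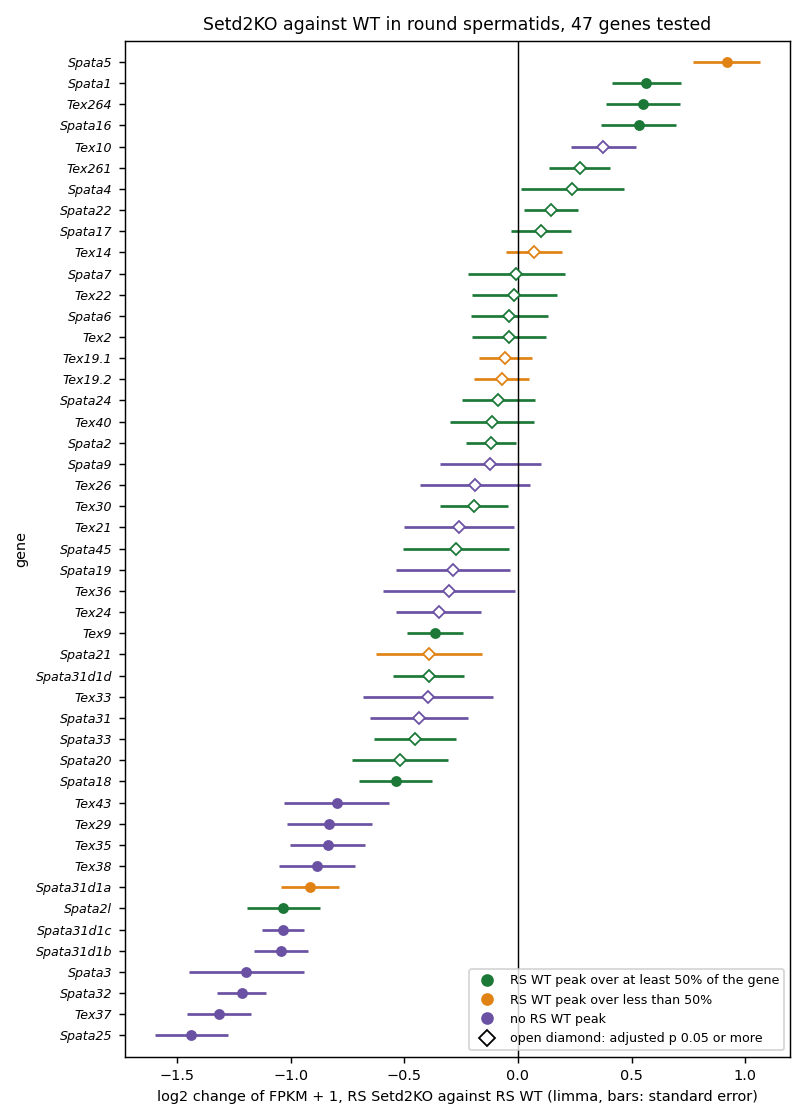
Each point is the log2 change of FPKM + 1 in RS Setd2KO against RS WT for 1 of the 47 genes tested, with its standard error, and filled circles mark adjusted p under 0.05. Purple points (no RS WT peak of H3K36me3 over the gene) hold 10 of the 14 genes that fell and none of the 4 that rose.

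Beside these changes, sums over marker lists differed between the RS genotypes. The 10 genes listed for elongating and condensing spermatids summed to 5797 and 5871 FPKM in RS WT and to 2411 and 2534 FPKM in RS Setd2KO. They were abundant in RS WT, so they do not mark other cells alone. They include protamine and transition protein genes, which fell, and Odf2, which did not pass (log2 change 0.02, adjusted p = 0.932). Markers of Sertoli cells (8 of 9 in the tables, 2 of them under 0.1 FPKM on average) summed to 4.56 and 6.88 FPKM in RS WT and to 14.2 and 12.6 FPKM in RS Setd2KO. Those of peritubular myoid cells (5 of 5) summed to 2.18 and 3.29 FPKM and to 10.7 and 9.68 FPKM. Their part in the results was not tested.

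By role, the sperm tail and mitochondrial genes had 3 of 13 lower and none higher in RS Setd2KO, with a median log2 change of -0.29, where 21.8% of all tested genes were lower and 20.9% higher. The head and acrosome genes had 2 of 7 higher (Spata1 and Spata16) and 1 lower (Spata3). Of the 4 meiosis genes none passed in RS, where Tex14 was at 14.9 and 14.01 FPKM in the RS WT libraries and 15.8 and 14.6 FPKM in the RS Setd2KO libraries and the other 3 were at 0.0958 to 0.721 FPKM. Of the 10 broadly expressed genes 2 rose (Spata5 and Tex264) and 2 fell (Spata2l and Tex9). The role lists do not hold all of the 47 tested genes. Those left out include Spata25, Spata32, Spata31d1a, Spata31d1b, Spata31d1c, Tex29, Tex35 and Tex38, which all fell in RS Setd2KO. Abundant genes that did not pass included Spata6, at 165 and 177 FPKM in the RS WT libraries and 156 and 177 FPKM in the RS Setd2KO libraries, Spata4, at 389.7 and 427 FPKM in the RS WT libraries and 461 and 503 FPKM in the RS Setd2KO libraries, and Spata33, at 456 and 415 FPKM in the RS WT libraries and 313 and 323 FPKM in the RS Setd2KO libraries (adjusted p = 0.0628).

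The sequence in front of the start site is shown for the 4 genes with the largest falls and the 4 that rose, because the 2 sets differed in how many CpG dinucleotides they hold there. The 250 bases upstream of the start are from RefSeq on GRCm38.p6, which is another build than the mm9 of the peaks, and capitals mark CpG. The first 4 are of genes that fell and lie at chr2:164828535-164828784, minus strand (Spata25), chr6:70918923-70919172, minus strand (Tex37), chr11:103218433-103218682, minus strand (Spata32) and chr1:86021695-86021944, plus strand (Spata3).
Spata25: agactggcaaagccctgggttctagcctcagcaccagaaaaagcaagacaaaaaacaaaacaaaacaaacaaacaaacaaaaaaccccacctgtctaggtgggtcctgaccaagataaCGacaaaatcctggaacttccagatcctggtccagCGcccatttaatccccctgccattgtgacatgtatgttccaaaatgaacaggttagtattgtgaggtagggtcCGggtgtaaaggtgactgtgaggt
Tex37: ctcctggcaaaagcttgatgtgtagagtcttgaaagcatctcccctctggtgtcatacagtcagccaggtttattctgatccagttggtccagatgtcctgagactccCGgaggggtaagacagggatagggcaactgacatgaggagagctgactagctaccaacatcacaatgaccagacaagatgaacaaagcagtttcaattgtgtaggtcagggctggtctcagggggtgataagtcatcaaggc
Spata32: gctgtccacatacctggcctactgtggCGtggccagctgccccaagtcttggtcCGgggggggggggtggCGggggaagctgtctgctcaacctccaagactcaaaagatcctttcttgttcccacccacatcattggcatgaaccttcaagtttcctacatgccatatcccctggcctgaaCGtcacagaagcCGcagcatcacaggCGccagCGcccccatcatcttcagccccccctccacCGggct
Spata3: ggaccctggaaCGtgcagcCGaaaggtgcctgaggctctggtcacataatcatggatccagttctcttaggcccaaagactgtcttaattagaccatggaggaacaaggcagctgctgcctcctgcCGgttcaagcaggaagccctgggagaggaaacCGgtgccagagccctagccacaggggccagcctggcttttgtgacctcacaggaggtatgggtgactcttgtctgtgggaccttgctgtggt
The next 4 are of genes that rose and lie at chr3:37419700-37419949, plus strand (Spata5), chr3:146499794-146500043, minus strand (Spata1, the first of 2 starts in the table), chr9:106685953-106686202, minus strand (Tex264, the first of 2 starts) and chr3:26637381-26637630, plus strand (Spata16).
Spata5: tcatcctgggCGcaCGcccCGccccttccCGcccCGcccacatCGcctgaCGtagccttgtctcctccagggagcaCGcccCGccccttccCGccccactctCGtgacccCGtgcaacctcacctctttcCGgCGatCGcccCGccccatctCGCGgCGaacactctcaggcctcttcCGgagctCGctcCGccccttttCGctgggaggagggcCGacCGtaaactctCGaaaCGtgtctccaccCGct
Spata1: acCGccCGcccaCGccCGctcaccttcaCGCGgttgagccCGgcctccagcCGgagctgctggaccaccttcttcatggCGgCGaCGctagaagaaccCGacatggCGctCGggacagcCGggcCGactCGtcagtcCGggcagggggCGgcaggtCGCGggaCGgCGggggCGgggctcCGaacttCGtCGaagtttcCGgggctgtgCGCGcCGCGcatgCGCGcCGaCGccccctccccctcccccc
Tex264: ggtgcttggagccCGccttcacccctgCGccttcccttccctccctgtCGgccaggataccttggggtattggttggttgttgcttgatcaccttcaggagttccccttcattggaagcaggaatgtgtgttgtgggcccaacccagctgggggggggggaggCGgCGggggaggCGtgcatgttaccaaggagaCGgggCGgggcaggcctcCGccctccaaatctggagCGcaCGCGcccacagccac
Spata16: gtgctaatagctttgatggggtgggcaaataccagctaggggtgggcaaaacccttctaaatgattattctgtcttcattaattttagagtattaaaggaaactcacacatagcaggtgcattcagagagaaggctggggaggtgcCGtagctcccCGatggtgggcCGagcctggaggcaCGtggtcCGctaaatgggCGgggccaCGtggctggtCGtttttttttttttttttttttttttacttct
The printed stretches hold 3, 1, 8 and 4 CpG in the genes that fell, and 28, 36, 12 and 8 in the genes that rose.

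Over the whole 300-base promoter window (250 bases before to 50 after the start), 43 of the 49 genes had an entry, and Spata24, Spata2l, Tex22, Tex24, Tex40 and Tex43 had none. The median was 3.5 CpG in the 12 genes that fell in RS Setd2KO and had an entry, 28 in the 4 that rose and 9.5 in 25 that were not called. Over all autosomal genes the corresponding medians were 18, 21 and 21 CpG. Where a gene had more than 1 start, its number is the mean over its starts, as for Spata1 (47) and Tex264 (28). Across 41 tested genes, CpG number and the log2 change in RS went together with a Spearman rho of 0.58, against 0.11 across 8602 autosomal genes. CpG number went with the PD to RS step in WT at a rho of -0.61, against -0.25 across all, and with the Setd2KO change in PD at a rho of -0.42, against 0.0053 across all. The 28 genes that rose from PD to RS in WT had a median of 4 CpG, and the 9 that fell had 25. These are descriptions across genes, which share the same 8 libraries and are not independent replicates. Within the genes that fell the number ran from 0 to 30, the highest being Spata18, so low CpG was not shared by all of them. Nor was it confined to them: in the 25 not called the number ran from 1 to 41. Low among those 25 were the spermatid genes Spata9 (1), Tex36 (2) and Tex33 (2.5).

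**Figure D3:**
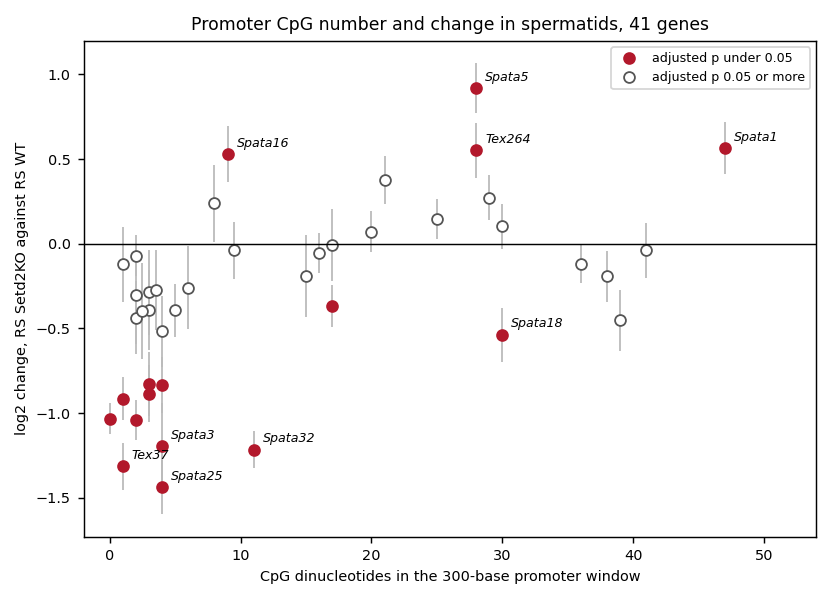
Each point is 1 of 41 genes. The x axis gives the number of CpG dinucleotides in its 300-base promoter window, as a mean where it has more than 1 start. The y axis gives its log2 change in RS Setd2KO against RS WT, with standard error. The 12 genes that fell lie at 0 to 4 CpG except Spata32 at 11, Tex9 at 17 and Spata18 at 30, and the 4 genes that rose lie at 9 to 47.

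Short motifs known from spermatid promoters were searched in the 250 bases upstream, on both strands for all but the last motif named here. That last motif was searched only as printed, and not on the opposite strand. The full cyclic AMP response element TGACGTCA was in 0 of 43 genes, against 2.38% of all autosomal genes with a promoter in the table. Its shorter part TGACG was in 9 of 43 (20.9%), against 23.6%, and every full element also holds it. The letters AACTGNC, a binding motif of the MYB family, were in 8 of 43 (18.6%), against 11.3%. GTTGCCA, a part of the X-box bound by RFX factors, was in 2 of 43 (4.65%), against 3.80%. TATAAA was in 0 of 43, against 8.80%. These counts say only which letters lie in these windows.

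In spermatocytes the direction was the opposite. In PD Setd2KO 19 of the 47 genes were higher, where 29.8% of all tested genes were, and 2 were lower, where 6.3% of all tested genes were. The median log2 change was 0.38 for the 47 genes and 0.19 for all genes tested. Both Setd2KO libraries lay above both WT libraries for 29 of the 47, against 56.6% of all tested genes. The balance over all genes depended on the scaling: 82.5% of all called genes were higher on the deposited scale, 66.3% with upper-quartile scaling and 45.7% with quantile normalization, while 19 of the 47 were higher under each of the 3, of which quantile normalization shared 17 with the deposited scale. Genes that were lower went from 2 to 5 and 6 under these scalings.

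The largest rise was that of Tex33, with 5.23 and 8.76 FPKM in the PD WT libraries and 37.9 and 19.5 FPKM in the PD Setd2KO libraries, a log2 change of 1.86 ± 0.29 (SE, adjusted p = 0.00103). Tex36 (chr7:140778707-140793798, minus strand) had 2.31 and 4.33 FPKM in the PD WT libraries and 16.99 and 9.29 FPKM in the PD Setd2KO libraries, a log2 change of 1.70 ± 0.29 (SE, adjusted p = 0.00158). Spata9 (chr13:76105187-76136416, plus strand) had 0.947 and 1.74 FPKM in the PD WT libraries and 8.03 and 5.09 FPKM in the PD Setd2KO libraries, a log2 change of 1.68 ± 0.22 (SE, adjusted p = 0.000524). In all 3, which were picked for their rises, the groups did not overlap, and PD Setd2KO replicate 1 was higher than replicate 2. The same held for Spata21 (chr4:140644260-140668674, plus strand), with 5.59 and 7.34 FPKM in the PD WT libraries and 25.9 and 16.1 FPKM in the PD Setd2KO libraries, a log2 change of 1.53 ± 0.23 (SE, adjusted p = 0.000999). It held for Spata19, with 5.28 and 7.53 FPKM in the PD WT libraries and 26.8 and 14.6 FPKM in the PD Setd2KO libraries, a log2 change of 1.51 ± 0.25 (SE, adjusted p = 0.00144). It held for Spata45 (chr1:192860701-192866820, plus strand), with 4.80 and 5.33 FPKM in the PD WT libraries and 19.8 and 10.7 FPKM in the PD Setd2KO libraries, a log2 change of 1.36 ± 0.23 (SE, adjusted p = 0.00164). All 6 are genes that are far higher in RS than in PD.

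Other genes of spermatids were also higher in the PD Setd2KO libraries. They were read from 450 other genes that stand at 20 FPKM or more in RS WT and at least 20-fold lower in PD WT. The median PD level of these genes, as a percentage of the RS mean of the same genotype, was 1.96% and 2.76% for WT replicates 1 and 2, and 13.02% and 7.69% for Setd2KO replicates 1 and 2. The choice of genes holds the WT percentages low and not those of Setd2KO, whose RS levels were also lower (median log2 change -0.54 over all genes of the kind), so the gap between the genotypes is partly set by that choice. RNA of spermatids in the PD libraries and expression of these genes in Setd2KO spermatocytes cannot be told apart here. The same measure over the 18 Tex and Spata genes of this kind was 1.86%, 2.61%, 12.5% and 7.62%. Of the 18, 15 were higher in PD Setd2KO (83.3%), beside 85.7% of all genes of the kind. In PD Setd2KO replicate 1 the 18 genes ran from 9.89% (Tex35) to 17.4% (Tex38). As an alternative, the profile of the other cell type was subtracted from each library in proportions found this way, and then 4 of the 47 genes were higher in PD Setd2KO and 9 were lower. All 6 genes of the largest rises lost their calls. They belong to the 18, whose percentages were close to those subtracted, so this loss was largely set by the subtraction and is no test. The same holds for Spata20 below. Tex33, Tex36 and Spata9 then had log2 changes of 0.70, 0.73 and 0.04 (adjusted p of 0.145, 0.106 and 0.906). Spata19, Spata21 and Spata45 turned to log2 changes of -0.22, -0.18 and -0.11, with adjusted p of 0.677, 0.541 and 0.883. Spata20, which had 11.2 and 12.4 FPKM in the PD WT libraries and 29.3 and 18.4 FPKM in the PD Setd2KO libraries, turned from a log2 change of 0.93 to -0.92 and passed the test in both directions, and its rise was lost without PD Setd2KO replicate 1 (adjusted p = 0.0826). It was singled out after its values were seen. The markers of spermatogonia (9 of 9) also differed in PD, with sums of 25.04 and 26.8 FPKM in WT and 43.00 and 53.9 FPKM in Setd2KO, and their part was not tested.

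**Figure D4:**
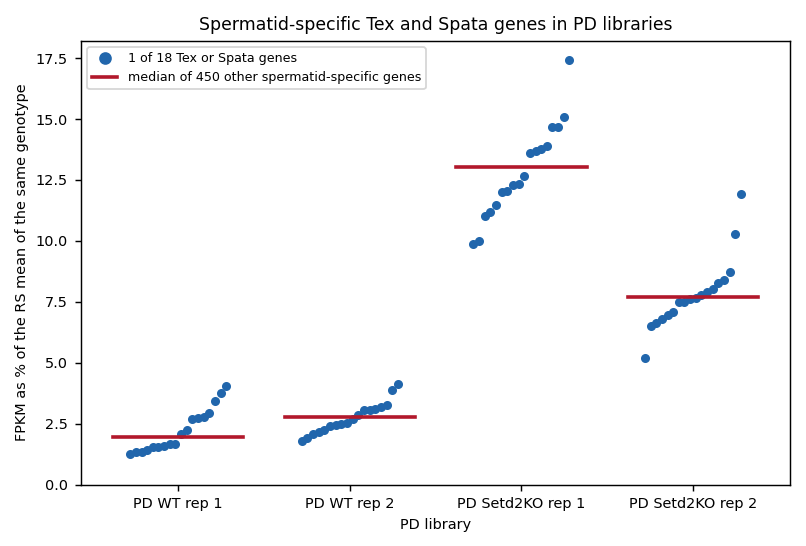
For each PD library, blue points give the FPKM of 18 spermatid-specific Tex and Spata genes as a percentage of the RS mean of the same genotype, sorted from low to high. The red line is the median of 450 other such genes, at 1.96%, 2.76%, 13.02% and 7.69%, and the points lie around it in each library. All were chosen as at least 20-fold lower in PD WT than in RS WT, which holds the WT values low.

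Among the genes that were higher in PD Setd2KO were 3 that stand higher in PD than in RS in WT. Spata22 had 10.2 and 11.8 FPKM in the PD WT libraries and 16.4 and 18.7 FPKM in the PD Setd2KO libraries, a log2 change of 0.63 ± 0.12 (SE, adjusted p = 0.00277). Tex19.1 had 4.50 and 4.87 FPKM in the PD WT libraries and 6.99 and 8.93 FPKM in the PD Setd2KO libraries, a log2 change of 0.65 ± 0.12 (SE, adjusted p = 0.00202). Tex30 (chr1:44143462-44159233, minus strand) had 51.3 and 60.7 FPKM in the PD WT libraries and 88.4 and 91.4 FPKM in the PD Setd2KO libraries, a log2 change of 0.68 ± 0.15 (SE, adjusted p = 0.00583). These 3 and Tex38 were the 4 genes that stayed higher when the profile of the other cell type was subtracted. Tex19.2 did not pass, with 12.2 and 15.1 FPKM in the PD WT libraries and 14.6 and 15.1 FPKM in the PD Setd2KO libraries (adjusted p = 0.464). Tex40 and Tex261 were the genes that were lower. Tex40 had 220.4 and 306 FPKM in the PD WT libraries and 173 and 166 FPKM in the PD Setd2KO libraries, a log2 change of -0.61 ± 0.18 (SE, adjusted p = 0.0247). Tex261 (chr6:83720408-83725806, minus strand), which takes part in export from the endoplasmic reticulum, had 30.03 and 35.96 FPKM in the PD WT libraries and 23.1 and 22.98 FPKM in the PD Setd2KO libraries, a log2 change of -0.49 ± 0.13 (SE, adjusted p = 0.0153). The count of lower genes went from 2 to 0 without either PD Setd2KO library, to 1 without RS Setd2KO replicate 2 and to 5 without PD WT replicate 1. Tex40 and Tex261 had adjusted p of up to 0.152 and 0.0966 over the alternatives.

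The Setd2KO effects in the 2 cell types were set against each other by the test of their difference. The effect in RS was lower than that in PD for 28 of the 47 genes, where this held for 27.3% of all tested genes, and higher for 1, where this held for 7.76%. The count of higher differences went from 1 to 7 without PD WT replicate 1 and to 2 without PD WT replicate 2. The lowest difference was that of Tex33 (-2.25 ± 0.40 (SE, adjusted p = 0.00194)), followed by Tex36 (-1.999 ± 0.41 (SE, adjusted p = 0.0036)), Tex29 (-1.99 ± 0.27 (SE, adjusted p = 0.000489)), Tex43 (-1.98 ± 0.33 (SE, adjusted p = 0.00135)) and Spata21 (-1.92 ± 0.33 (SE, adjusted p = 0.00161)). Tex261 was the gene with the higher effect in RS, with a difference of 0.77 ± 0.19 (SE, adjusted p = 0.00947). Its RS values were 21.8 and 22.1 FPKM in WT and 26.8 and 26.6 FPKM in Setd2KO. With the profile of the other cell type subtracted, 14 differences were lower and 5 higher. For spermatid genes the PD part of a difference is largely removed by that subtraction itself. Of the 5 lowest, Tex33 (adjusted p = 0.0813), Tex36 (adjusted p = 0.0800) and Spata21 (-0.22, adjusted p = 0.547) then lost their calls, and Tex29 and Tex43 kept them. Over all genes 22.1% of the called differences were higher on the deposited scale, 41.5% with upper-quartile scaling and 52.9% with quantile normalization. Of the 6 genes with the largest falls in RS, Spata25, Tex37, Spata32, Spata31d1b and Spata31d1c had lower effects in RS also after the subtraction, and Spata3 did not pass (adjusted p = 0.367).

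Genes that work with the named proteins were read from lists. Of all tested genes, 20.9% rose and 21.8% fell in RS Setd2KO, and 29.8% rose and 6.3% fell in PD Setd2KO, and a list's count near those shares is no result about the list. Of 6 tested genes of the intercellular bridge, where Tex14 acts, 4 rose in RS Setd2KO and none fell, and none passed in PD. Rbm44 was at 15.5 and 13.9 FPKM in RS WT and 26.3 and 30.2 FPKM in RS Setd2KO, Cep55 at 5.01 and 4.02 FPKM and 9.83 and 8.37 FPKM, and Cit at 2.35 and 3.04 FPKM and 5.56 and 5.31 FPKM. Tex14 itself stayed between 14.0 and 15.8 FPKM in all 4 RS libraries (log2 change 0.07 ± 0.12 (SE, adjusted p = 0.667)). Of 12 tested genes of meiotic recombination, where Spata22 acts, 4 rose and 1 fell in PD Setd2KO, and 1 rose and 3 fell in RS Setd2KO. Rpa1, a subunit of the complex that binds single-stranded DNA, was at 39.1 and 40.6 FPKM in RS WT and 83.1 and 77.1 FPKM in RS Setd2KO.

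Of 12 genes of acrosome formation, where Spata16 acts, 3 rose and 3 fell in RS Setd2KO, and 4 rose and 2 fell in PD Setd2KO. Of 12 genes of head-tail coupling, where Spata6 acts, none rose and 4 fell in RS Setd2KO. Among these was Sun5, whose WT libraries had 102.1 and 88.96 FPKM and whose Setd2KO libraries had 46.5 and 74.5 FPKM. Of 11 genes of calcineurin and CatSper, the partners of Spata33 and Tex40, none rose and 1 fell in RS. Of 5 genes of the Cyld and linear ubiquitin complex, to which the Spata2 protein belongs, 1 rose and 1 fell. The gene that fell was Sharpin, at 10.2 and 9.44 FPKM in RS WT and 6.49 and 6.93 FPKM in RS Setd2KO. Of 5 genes of the complex of Tex10 in ribosome biogenesis none passed in either cell type. All 5 genes of protamines and transition proteins fell in RS Setd2KO, with a median log2 change of -1.78, beside -1.44 for Spata25.

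H3K36me3 peaks of WT cells lay over 29 of the 49 genes in PD, where 46.4% of all autosomal genes had one, and over 28 in RS, where 45% did. A gene counts as having a peak where at least 1 base overlaps, and cover is the percentage of the gene's bases under peaks. With 1 list a group there is no test. The share was then read among genes of a given RNA level. Of those at 5 FPKM or more in PD WT, 22 of 27 (81.5%) had a PD WT peak, beside 95.4% of all such autosomal genes. Of those at 5 FPKM or more in RS WT, 24 of 43 (55.8%) had an RS WT peak, beside 79.4%. Of those at 50 FPKM or more in RS WT, 14 of 24 (58.3%) had one, beside 74.9%. The median length of the 49 genes was 10306 bases and that of all autosomal genes was 16260 bases. Tex33, Spata19, Tex36, Spata9, Tex21, Tex29, Tex35 and Spata3 had no peak in either WT list, although both RS WT libraries had 66.9 FPKM or more of each.

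The longest cover lay over Spata16, with 167624 bases (57.8%) in PD WT and 240688 bases (83.0%) in RS WT. Spata5 followed in PD WT with 146880 bases and Spata17, which encodes a calmodulin-binding protein, with 124593 bases. In RS WT Spata17 had 130450 bases and Spata6 had 95941 bases. Spata4, Spata24, Spata45, Tex40 and Tex261 were covered over their whole length in both lists. Spata45 was so covered in PD WT at 4.80 and 5.33 FPKM, while Spata21, at 5.59 and 7.34 FPKM, had no PD WT peak.

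Several genes had different cover in the 2 WT cell types. Tex10 (chr4:48443828-48486294, minus strand) was covered over 99.1% in PD WT, by peaks of 27219 and 20565 bases, and had no RS WT peak. Its RNA was at 20.99 and 26.4 FPKM in PD WT and 24.2 and 24.9 FPKM in RS WT (adjusted p = 0.708). Spata5 was covered over 92.3% in PD WT and 34.9% in RS WT. When the gene was cut into 10 equal parts, the first 6 had no cover in RS WT and the last 4 had 67.1% to 100%, while its RNA fell from 31.9 and 40.2 FPKM to 18.6 and 17.0 FPKM. Tex14 lost cover at the other end. Its last 4 parts had 96.9% to 100% in PD WT, and 0, 0, 0 and 20.6% in RS WT. Spata25 was covered over 91.5% in PD WT, at 0.799 and 1.09 FPKM, and had no peak in RS WT, at 52.5 and 44.2 FPKM. The PD WT peak over it was 13338 bases long (chr2:164640599-164653936) and lay mostly outside the 1153 bases of the gene. Spata20 went the other way, with no PD WT peak and an RS WT cover of 72.2%, as its RNA rose from 11.2 and 12.4 FPKM to 295 and 304 FPKM. Spata2l went from 27.7% to 63.8% and Spata16 from 57.8% to 83.0%.

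**Figure D5:**
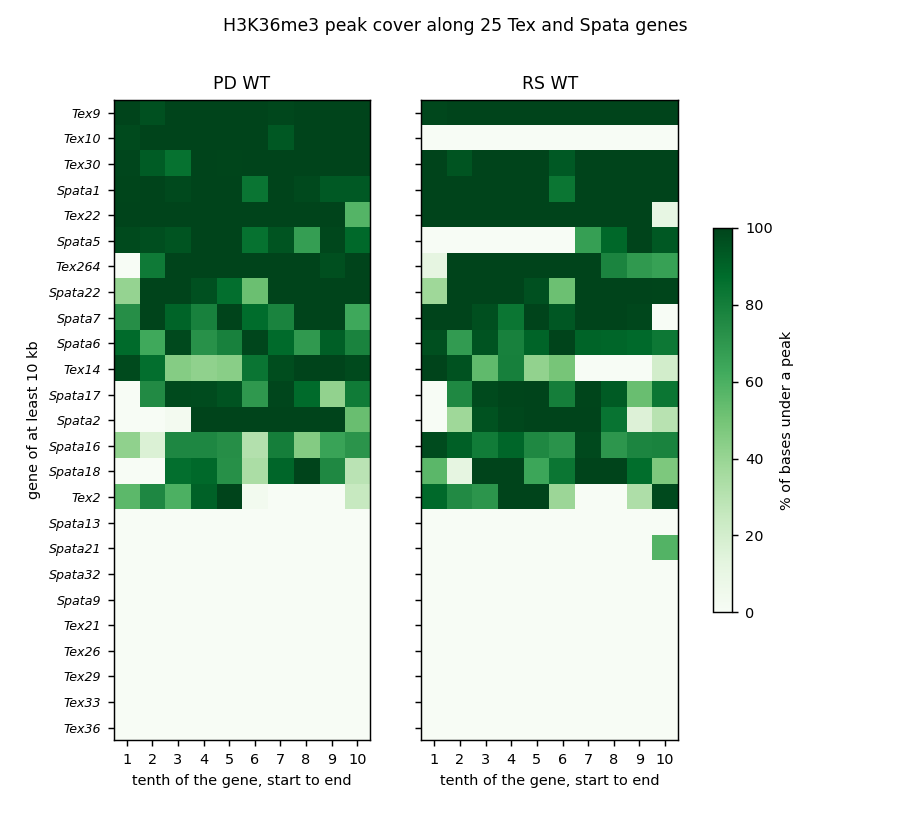
Rows are the 25 genes of at least 10 kb, columns are 10 equal parts of the gene from start to end, and colour gives the percentage of bases under an H3K36me3 peak in PD WT (left) and RS WT (right). Tex10 is filled in PD WT and empty in RS WT, Spata5 is empty over its first 6 parts in RS WT, Tex14 over parts 7 to 9, and 9 genes are empty in PD WT.

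In Setd2KO cells nearly all of this cover was gone. In PD Setd2KO 2 of the 49 genes had a peak, where 2.02% of all autosomal genes did, and in RS Setd2KO 3 did, where 5.44% of all autosomal genes did. The PD Setd2KO peaks lay near the start of 2 genes with no WT peak. One of 785 bases was 460 to 1244 bases inside Tex36 (chr7:140792554-140793338), and one of 891 bases was 117 to 1007 bases inside Tex21 (chr12:77346726-77347616). Their scores, as given by the authors, were 58.5 and 59.1, next to the lowest score of 50 in the lists. Tex36 was among the genes that were higher in PD Setd2KO, and Tex21 had 6.14 and 9.04 FPKM in the PD WT libraries and 16.5 and 9.39 FPKM in the PD Setd2KO libraries (adjusted p = 0.0518). The RS Setd2KO peaks were 143 to 210 bases long and lay deep inside Spata6, Tex14 and Tex264, which all had WT peaks.

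Read against the RNA changes, the genes that fell in RS Setd2KO were mostly genes without a called peak in RS WT. Of the 14 that fell, 4 had an RS WT peak (28.6%), beside 65.1% of all autosomal genes that fell, and all 4 that rose had one, beside 68.6%. In PD WT 6 of the 14 had a peak (42.9%), among them Spata25, beside 66.2% of all autosomal genes that fell. Of 19 tested genes with no RS WT peak, 10 fell and none rose, beside 28.9% and 24.0% of all autosomal genes with no peak. Of 28 with a peak, 4 fell and 4 rose (14.3% each), beside 19.6% and 19.06%. Among genes that rise from PD to RS in WT, 10 of 18 without an RS WT peak fell (55.6%, beside 41.3%) and 3 of 14 with one fell (21.4%, beside 39.5%). The log2 change in RS and the RS WT cover had a Spearman rho of 0.55 over 47 genes and 0.09 over 11084 autosomal genes. Gene length had a rho of 0.53 with the same change (0.10 over all), and the genes that fell had a median length of 6274 bases, against 100849 bases for the 4 that rose. Cover and length had a rho of 0.15 with each other. What part the mark, the length or the promoter has in the change was not tested.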

How the data were processed

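RNA-seq values were used as deposited: the authors gave FPKM, made per the submitters' processing notes with CASAVA, TopHat2, Cufflinks and Cuffdiff on mm9. H3K36me3 was used as the peaks the authors deposited, 1 list for each group, each peak with a score (lowest 50); the notes name CASAVA, Bowtie and bedtools, and versions and the use of the spike-in chromatin are not given in the sources used here. Input libraries are listed for PD WT and PD Setd2KO and not for RS, and they were not analysed here.

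Genes that reached a mean of 1 FPKM in any of the 4 groups were fitted as log2(FPKM + 1) with limma 3.58.1 in R 4.3.3 (1 mean per group, intensity trend, 4 residual and 6.92 prior degrees of freedom), adjusted over all genes tested and called at adjusted p under 0.05. The fit was tested on simulated data with independent spread in each library. That test does not cover shared library effects or mixed cells. A change on this scale understates that of low genes. The comparisons were of genotypes within PD and within RS, of RS with PD in WT, and of the difference between the Setd2KO effects. Cover was computed from peak overlap with the gene intervals of the tables, and in 10 equal parts for genes of at least 10 kb. The intervals of Spata13 and Spata17 differ between tables. Overlapping pairs are Spata1 with Ctbs, Spata2 with Rnf114, Spata32 with 1700023F06Rik, Tex10 with Invs and Tex9 with Mns1. Whether counting used strand is not given in the sources used here.

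Genes were named by rule: up to 6 per direction by size of change for each genotype comparison and for the step between cell types, 5 for the difference, the 5 of highest mean level, role lists, 3 genes per partner list, the longest and most different cover, and every Setd2KO peak. A gene this rule chose from a partner list is not reported here. The genes, lists and rules were chosen with earlier results of these data known, and lists are described by counts, with no test. Replicate numbers gave no sign of pairing the samples.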

Additional observations from a re-analysis of the deposited data

Results flagged for a closer look

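The Setd2KO effect differed between RS and PD, by the test of the difference itself (limma, adjusted p under 0.05), for 28 genes with a lower and 1 with a higher effect in RS. The values are the log2 effect in RS minus the log2 effect in PD. For the tail and mitochondrial genes they were -2.25 for Tex33, -1.999 for Tex36, -1.98 for Tex43, -1.80 for Spata19, -1.64 for Spata45, -1.33 for Tex26 and -1.31 for Tex37. For the Spata31 genes they were -1.71 for Spata31, -1.47 for Spata31d1b, -1.21 for Spata31d1c, -1.12 for Spata31d1a and -0.73 for Spata31d1d. For other genes that rise from PD to RS they were -1.99 for Tex29, -1.92 for Spata21, -1.87 for Tex38, -1.85 for Spata25, -1.80 for Spata9, -1.49 for Tex35, -1.46 for Tex24, -1.44 for Spata20, -1.31 for Spata3, -1.20 for Spata7, -1.16 for Spata32 and -1.02 for Spata2l. They were -0.52 for Tex9, and for the genes of higher PD than RS level -0.87 for Tex30, -0.70 for Tex19.1, -0.48 for Spata22 and 0.77 for Tex261.

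In PD and RS taken alone, Tex37, Spata32 and Spata3 did not pass in PD (adjusted p = 0.962, 0.736 and 0.747) and fell in RS. Tex33, Tex36, Spata9, Spata21, Spata19 and Spata45 rose in PD and did not pass in RS (adjusted p of 0.284, 0.419, 0.683, 0.201, 0.381 and 0.369). Tex29 and Tex43 rose in PD and fell in RS. The PD rises of these 8 genes were all lost with the profile of the other cell type subtracted, which the subtraction largely sets for such spermatid genes. That subtraction also ended the difference for 14 genes: Tex33, Tex36, Spata19, Spata45, Tex26, Spata31, Spata31d1d, Spata21, Spata9, Tex35, Tex24, Spata20, Spata3 and Spata7, with values of -0.07 (adjusted p = 0.919) for Spata19, -0.17 (adjusted p = 0.575) for Spata9 and -0.17 (adjusted p = 0.799) for Spata45. The difference of Spata22 was lost under 11 of the alternatives, among them each RS library left out (adjusted p up to 0.595). That of Spata3 was also lost without PD WT replicate 2, RS WT replicate 2 or RS Setd2KO replicate 1, with no filter on low values and with quantile normalization (adjusted p up to 0.367 over the alternatives). Those of Spata31d1d and Tex9 were each lost under 9 alternatives (adjusted p up to 0.665 and 0.167), and that of Tex26 also with quantile normalization and without PD WT replicate 1.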

How the results depend on the processing

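The counts of genes for RS against PD in WT, and of genes that fell in RS Setd2KO, stayed within 1.5 times the reported count under every alternative. Leaving out 1 library gave 32 to 35 higher and 7 to 11 lower for RS against PD, 10 to 16 lower and 1 to 7 higher for Setd2KO in RS, 16 to 26 higher and 0 to 5 lower for Setd2KO in PD, and 24 to 29 lower and 1 to 7 higher for the difference of effects. Genes lower in PD Setd2KO numbered 5 with upper-quartile scaling, 6 with quantile normalization, 9 with the other cell type subtracted, and 1 without a filter, with the replicate block or with only the groups of the contrast, and genes higher in PD numbered 4 with the other cell type subtracted. Differences of effects that were higher numbered 7 with either scaling, 3 without the intensity trend and 5 with the other cell type subtracted, and lower ones 14 with that subtraction. No gene had a Setd2KO peak over 10% of its length or with a score of at least 100, in PD (0) or RS (0). Spata19 (-0.22), Spata21 (-0.18) and Spata45 (-0.11) changed sign in PD with the other cell type subtracted, and Spata4 for RS against PD without PD WT replicate 2 (0.24, and -0.52 without PD WT replicate 1). Of all genes tested, the subtraction left 1570 higher and 966 lower in PD, against 3409 and 721. The other causes of these moves were not tested.

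Same-numbered libraries did not deviate together, with correlations of -0.09 in PD and -0.15 in RS, so the numbers do not pair the samples. With the replicate block 19 genes were higher in PD and 13 fell and 4 rose in RS. A block with crossed numbers in RS, added after seeing the data, gave 14 and 4.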
